A study of Mus musculus with 16 samples.

Results

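Glra2, Glra3, Glrb and Gphn are the genes described here, 4 of the 19999 genes of the count table. They were chosen by name as the glycine receptor subunits and the receptor scaffold gephyrin, and their UMI counts were summed per mouse within cell classes defined by marker genes. The data come from single-nucleus RNA-Seq of medial prefrontal cortex (PFC) tissue, with 114512 nuclei and 216742276 UMIs from 16 male mice aged 22 weeks. The 4 groups of 4 mice were WT control, WT alcohol, 3xTg-AD and 3xTg-AD alcohol. Among other changes, 3xTg-AD mice carry a human APP transgene with the Swedish mutation and a human tau transgene with a dementia mutation, both driven by a Thy1 cassette that is active in neurons. WT mice were of the B6129 type. Exposed mice received cycles of intermittent ethanol vapor after injections of ethanol and pyrazole, an alcohol dehydrogenase inhibitor. Control mice breathed air and were also injected with pyrazole, so pyrazole was common to all groups, as was the water maze testing that came before dissection. The altered genes and the rest of the 3xTg-AD genetic background cannot be told apart with this design.

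Glycine receptors are pentameric chloride channels opened by glycine, built from alpha subunits alone or from alpha subunits together with the beta subunit. Glra2 and Glra3 encode alpha subunits, and Glrb encodes the beta subunit, which anchors the receptor at the postsynaptic membrane by binding gephyrin. Gephyrin, the product of Gphn, also holds GABA-A receptors at inhibitory synapses and is an enzyme of molybdenum cofactor synthesis. In the cortex most inhibitory transmission is GABAergic, and glycine receptors containing the alpha 2 subunit are known mainly as extrasynaptic receptors that ethanol and taurine can act on.

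The members lie on different chromosomes of the mm10 (GRCm38) genome. Glra2 is on the minus strand of chromosome X from 165129017 to 165327393, Glra3 on the plus strand of chromosome 8 from 55940460 to 56130070, Glrb on the minus strand of chromosome 3 from 80843599 to 80913660, and Gphn on the plus strand of chromosome 12 from 78226379 to 78684772. The promoter sequences are shown because their counts of the motif CG set Glrb and Gphn apart from the alpha subunit genes. These sequences were not used to choose the members. Each covers 250 bases before to 50 bases after the start of the gene in RefSeq (GRCm38.p6), read 5′ to 3′ on the strand of the gene, with each CG in capitals.
Glra2, chrX:165327344-165327643, minus strand: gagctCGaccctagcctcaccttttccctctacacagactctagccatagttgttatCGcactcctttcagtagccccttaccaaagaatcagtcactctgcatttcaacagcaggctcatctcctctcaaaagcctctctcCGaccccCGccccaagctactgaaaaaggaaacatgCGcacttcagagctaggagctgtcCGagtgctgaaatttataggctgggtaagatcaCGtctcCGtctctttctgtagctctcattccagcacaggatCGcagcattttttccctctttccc
Glra3, chr8:55940168-55940467, plus strand: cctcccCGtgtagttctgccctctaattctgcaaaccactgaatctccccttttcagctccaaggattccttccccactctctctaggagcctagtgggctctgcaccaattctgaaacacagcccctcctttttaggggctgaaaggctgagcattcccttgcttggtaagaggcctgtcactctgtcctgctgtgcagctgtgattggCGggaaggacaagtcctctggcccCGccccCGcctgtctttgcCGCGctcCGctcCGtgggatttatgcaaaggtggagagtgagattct
Glrb, chr3:80913611-80913910, minus strand: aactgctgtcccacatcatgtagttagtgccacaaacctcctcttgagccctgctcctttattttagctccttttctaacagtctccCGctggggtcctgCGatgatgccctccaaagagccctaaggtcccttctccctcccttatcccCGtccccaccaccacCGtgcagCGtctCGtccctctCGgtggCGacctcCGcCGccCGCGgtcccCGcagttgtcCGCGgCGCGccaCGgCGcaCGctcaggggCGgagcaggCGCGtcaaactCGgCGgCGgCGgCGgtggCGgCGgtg
Gphn, chr12:78226405-78226704, plus strand: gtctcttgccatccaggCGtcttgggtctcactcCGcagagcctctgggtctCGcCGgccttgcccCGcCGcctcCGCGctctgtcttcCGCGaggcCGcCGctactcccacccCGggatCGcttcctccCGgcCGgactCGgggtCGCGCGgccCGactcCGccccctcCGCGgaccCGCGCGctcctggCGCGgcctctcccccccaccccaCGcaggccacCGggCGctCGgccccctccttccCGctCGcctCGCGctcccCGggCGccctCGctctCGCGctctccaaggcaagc

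The motif CG, which reads the same on both strands, occurred 9 times in the Glra2 window and 8 times in the Glra3 window, near the median of 7 over 27025 mouse promoters of that length. The Glrb window held 30, a count reached by 11.5% of all promoters. The Gphn window held 42, reached by 2.93%. These counts describe the sequence, and methylation was not measured. A link of the counts to the levels over cell classes was not tested.

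Levels are given as UMIs of the gene per 1000000 UMIs (CPM) in the summed nuclei of a mouse, and errors are SDs over mice. The number of nuclei ran from 4955 to 9096 and the number of UMIs from 9622031 to 17544364 over the mice. Slc17a7, the vesicular glutamate transporter of cortical projection neurons, stood at 546 to 732 CPM and Gad1, the GABA synthesis enzyme, at 47.6 to 154.5 CPM, so both main neuron classes of the labeled tissue were present in every mouse. Thy1, which shares its promoter with the transgenes, overlapped between the genotypes. WT control mice 26 and 27 and 3xTg-AD mouse 12 stood apart by a high level of Gm42418, a transcript that overlaps ribosomal RNA sequence, and WT control mouse 27 held 1022 nuclei with Meis2 markers. The same cell barcode was present in more than 1 library for 3400 nuclei, or 2.97% of all nuclei. Results that changed without these mice or nuclei are given with the result or in the closing section.

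Glra2 was concentrated in few neuron types. Its mean over all nuclei was 11.4 ± 5.28 CPM (SD, n = 16 mice). It was 10.6 ± 5.74 CPM in glutamatergic neurons and 22.9 ± 8.38 CPM in GABAergic neurons, a ratio of 2.19 (geometric mean), with the GABAergic level higher in 16 of 16 mice. Among types, layer 6b (L6b) neurons led with 76.5 ± 48.0 CPM in the 13 mice with at least 10 such nuclei, and Vip interneurons followed with 73.5 ± 28.3 CPM. These neighbors in the order did not differ beyond their spread, since L6b was above Vip in 4 of 13 mice. Layer 6 corticothalamic (L6 CT) neurons came next at 33.8 ± 17.4 CPM, below Vip in 16 of 16 mice. L5/6 near-projecting (NP) neurons had 27.1 ± 16.7 CPM, Sncg interneurons 20.3 ± 15.7 CPM, Pvalb interneurons 19.0 ± 14.6 CPM and Sst interneurons 16.6 ± 9.55 CPM, and no neighbors in this stretch differed beyond their spread. The intratelencephalic (IT) neurons of layers 2/3, 5 and 6 held 3.83 ± 2.09, 5.56 ± 2.37 and 4.97 ± 3.70 CPM. L6 CT neurons exceeded L6 IT neurons 6.65-fold and Vip exceeded Pvalb interneurons 4.99-fold, each in 16 of 16 mice.

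The share of nuclei with a Glra2 UMI was highest in the same 3 types once depth was equalized. After each nucleus was thinned to 600 UMIs, 4.30% of Vip nuclei, 4.23% of L6b nuclei and 2.54% of L6 CT nuclei held a Glra2 UMI. Before thinning the shares were 9.85%, 14.6% and 8.11% at median depths of 1333, 2403 and 2229 UMIs per nucleus. Astrocytes, a class taken to lack this neuronal gene, gave a background of 0.325% after thinning at a median depth of 1206 UMIs. L2/3 IT neurons, at 0.294%, were not above this background. Oligodendrocytes were at 0.473%, oligodendrocyte precursors at 0.447%, endothelial cells at 0.310%, leptomeningeal cells at 0.147% and pericytes at 0%. Microglia with perivascular macrophages (Micro-PVM) were at 0.808% and 11.9 ± 6.55 CPM. Glutamatergic neurons as a whole, at 0.788%, and L5 extratelencephalic neurons, at 0.701% and 9.14 ± 6.41 CPM, were not above Micro-PVM.

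**Figure D1:**
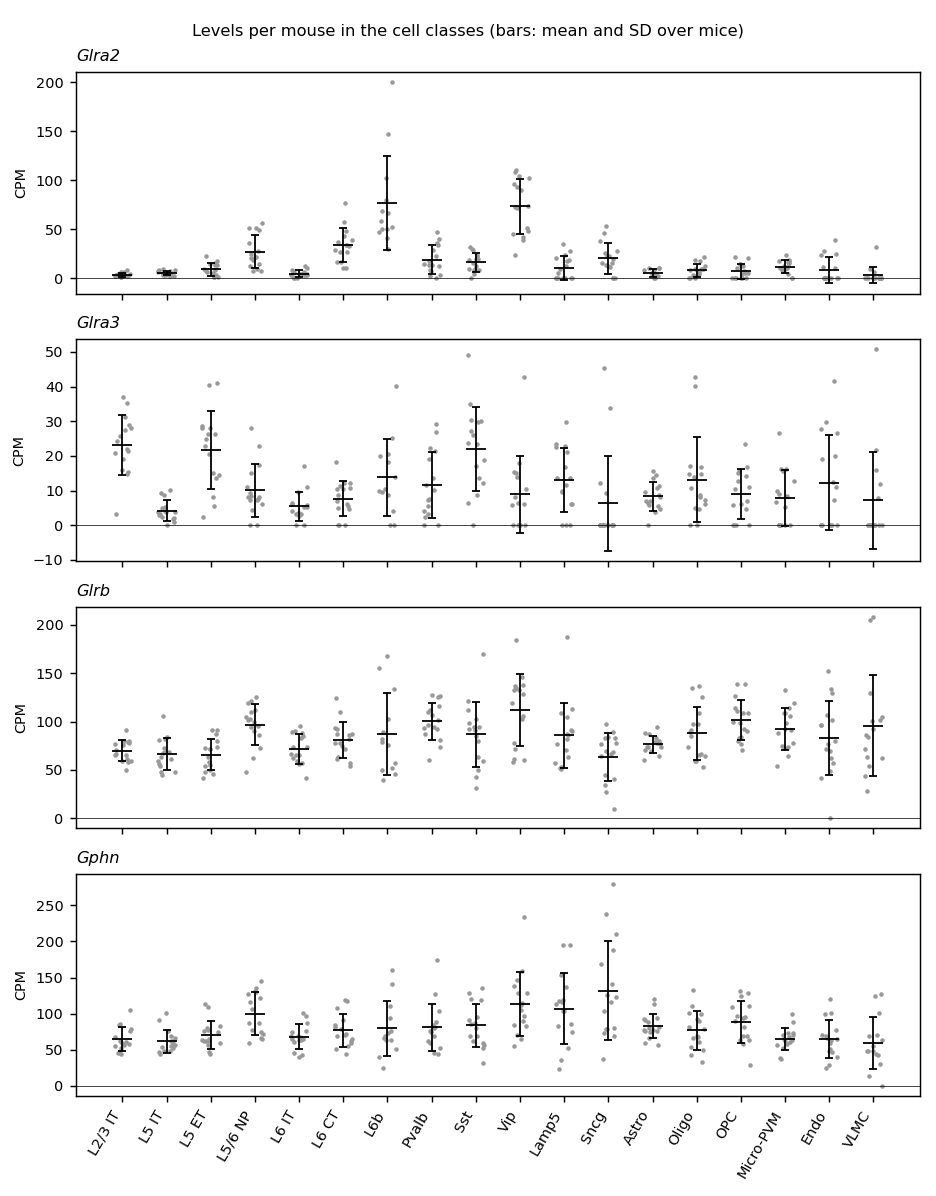
CPM of the 4 genes in 18 cell classes, with 1 point per mouse and bars for the mean and SD over mice with at least 10 nuclei of the class. Glra2 stands out in L6b and Vip neurons, at 76.5 and 73.5 CPM, whereas Glrb and Gphn are spread over all classes shown.

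Glra3 had another distribution. Its level over all nuclei was 14.7 ± 5.18 CPM, with 15.1 ± 5.96 CPM in glutamatergic and 14.3 ± 4.95 CPM in GABAergic neurons, and the GABAergic level was the higher one in 7 of 16 mice. L2/3 IT neurons held 23.2 ± 8.57 CPM, Sst interneurons 22.0 ± 12.2 CPM and L5 extratelencephalic (ET) neurons 21.6 ± 11.2 CPM. L5 IT neurons were at the low end with 4.22 ± 2.92 CPM. Pericytes reached a mean of 35.98 ± 43.1 CPM in 12 mice, but this rested on 9 UMIs. No neighboring classes in the Glra3 order differed beyond their spread.

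Glrb and Gphn were broad. Glrb had 86.4 ± 12.7 CPM over all nuclei, 71.4 ± 11.6 CPM in glutamatergic neurons and 93.1 ± 18 CPM in GABAergic neurons, a ratio of 1.29 that held in 15 of 16 mice. Its class means ran from 63.6 CPM in Sncg interneurons to 130.8 CPM in Sst Chodl interneurons, the latter from 3 mice, and no neighbors in the order differed beyond their spread. Non-neuronal classes were within this range, with 76.6 ± 8.71 CPM in astrocytes and 101.4 ± 21.01 CPM in oligodendrocyte precursors (OPC). Gphn had 75.2 ± 13.4 CPM over all nuclei, 69.1 ± 16.2 CPM in glutamatergic neurons and 93.3 ± 30.7 CPM in GABAergic neurons, a ratio of 1.32 in 15 of 16 mice. The highest Gphn means were in interneuron types, with 131.9 ± 68.5 CPM in Sncg, 113.2 ± 44.2 CPM in Vip and 106.7 ± 49.2 CPM in Lamp5 interneurons. Among glutamatergic types, L5/6 NP neurons exceeded L5 IT neurons 1.59-fold in 16 of 16 mice. In summed counts, fewer nuclei that express a gene and less RNA per nucleus cannot be told apart.

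Over the 20 named classes, the genes whose log2 class means followed each member most closely among 12171 genes were picked by Pearson correlation. For Glra2 these were Slc35b1 (r = 0.836), Rsbn1 (r = 0.83) and Pgm2 (r = 0.821), and for Glra3 they were Spcs3 (r = 0.658), Gm15261 (r = 0.594) and Arhgap6 (r = 0.589). For Glrb they were Dnmt1 (r = 0.888), Scg5 (r = 0.821) and Bmerb1 (r = 0.818), and for Gphn they were Polr3d (r = 0.917), Shmt2 (r = 0.912) and Mars (r = 0.906). The 20 points of each correlation share their libraries, and classes with few nuclei weigh as much as large ones. Over the 16 classes with at least 10 nuclei in every mouse, Rsbn1 stayed among the leading 3 genes for Glra2 (r = 0.847), Arhgap6 (r = 0.688) and Gm15261 (r = 0.640) for Glra3, and Scg5 (r = 0.873) for Glrb. None of the 3 leading genes of Gphn stayed.

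The groups were compared with edgeR's quasi-likelihood test on summed counts, fitted over all 16 mice in each class, with Benjamini-Hochberg adjustment over all genes tested in that class and contrast. An adjusted p of at most 0.05 is called. Differences are log2 fold changes with their SE. Genotype averaged over alcohol sets the 8 mice of the 3xTg-AD genotype against the 8 WT mice, and alcohol averaged over genotype sets the 8 exposed mice against the 8 controls. The contrasts share groups of mice and thus are not independent of each other. After the filter on low counts, Glra2 could be tested in 9 classes, Glra3 in 5, Glrb in 17 and Gphn in 18, counting all nuclei and both main neuron classes as classes. Of the resulting 49 tests per contrast, 1 was called for 3xTg-AD alcohol versus WT control, 1 for genotype averaged over alcohol, 1 for alcohol averaged over genotype, and 0 for each of the other 5 contrasts by edgeR. Over the same 18 classes 1.68%, 1.44% and 1.29% of the tests of all genes were called in these 3 contrasts, a share close to 1 call in 49 tests. Unadjusted p-values under 0.05 numbered 16, 16 and 14 of the 49 in the same 3 contrasts, where 13.9%, 11.4% and 14.6% of the tests of all genes had one. The tests of a gene in several classes share mice and, in the broad classes, nuclei.

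The other 5 contrasts gave fewer such p-values. There were 5 for 3xTg-AD versus WT control and 5 for WT alcohol versus WT control, where 6.73% and 9.81% of the tests of all genes had one. There were 8 for 3xTg-AD alcohol versus 3xTg-AD, 13 for 3xTg-AD alcohol versus WT alcohol and 1 for the interaction of genotype and alcohol, where 9.33%, 9.76% and 4.15% of the tests of all genes had one. The share of the tests of all genes that was called at the adjusted threshold was 0.246%, 0.0327%, 0.249%, 0.506% and 0.00196% in these 5 contrasts in the same order, beside 0 of 49 for the members. In the sum over all nuclei the called share of all genes was 4.06%, 3.28% and 3.3% for 3xTg-AD alcohol versus WT control, genotype and alcohol, and 0.435%, 0.0179%, 0.483%, 0.942% and 0% for the other 5 contrasts in the order just given.

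Glra2 was called higher with alcohol in L6 CT neurons, but both calls were lost on leaving out some single mice. In 3xTg-AD alcohol versus WT control and in alcohol averaged over genotype, it was the 1 call among 49 member tests. Of the tests of all genes, 1.68% and 1.29% were called there. The level of Glra2 in L6 CT neurons was 16.9, 27.1, 10.9 and 32.8 CPM in WT control mice 26, 27, 28 and 36. It was 39.5, 26.5, 36.6 and 43.2 CPM in WT alcohol mice 6, 7, 17 and 18, and 34.3, 29.1, 10.9 and 16.9 CPM in 3xTg-AD mice 12, 13, 14 and 21. The level was 77.3, 33.8, 48.1 and 57.5 CPM in 3xTg-AD alcohol mice 4, 31, 33 and 34. The 3xTg-AD alcohol mice did not overlap with the WT controls, although mouse 31 was just above WT control mouse 36, and 3xTg-AD mice overlapped with both WT groups. Glra2 rose by 1.16 ± 0.29 (log2, SE) in 3xTg-AD alcohol versus WT control mice, or 2.24-fold, with an adjusted p of 0.0367 by edgeR, in a class where 1.39% of 10060 genes were called in that contrast. Averaged over genotype, it rose by 0.85 ± 0.21 with alcohol, or 1.80-fold (adjusted p = 0.0422 by edgeR), where 0.984% of genes were called.

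The separate L6 CT contrasts did not pass the edgeR test. Glra2 was at 1.10 ± 0.28 in 3xTg-AD alcohol versus 3xTg-AD (adjusted p = 0.0870 by edgeR), at 0.60 ± 0.32 in WT alcohol versus WT control (adjusted p = 0.576) and at 0.06 ± 0.34 in 3xTg-AD versus WT control (adjusted p = 0.996). The interaction, the test of whether the alcohol difference depended on genotype, was 0.49 ± 0.43 (adjusted p = 0.9998 by edgeR). L6 CT neurons were 1 cluster in all groups, whose leading genes included Foxp2, Syt6, Tle4 and Zfpm2, markers of that type. The level rests on 4 to 40 Glra2 UMIs in WT control mice and 37 to 102 in 3xTg-AD alcohol mice. The summed level of the 5 measured L6b markers within L6 CT nuclei was 4.92 to 21.3 CPM in WT control, 16.0 to 34.4 CPM in WT alcohol, 10.8 to 22.2 CPM in 3xTg-AD and 17.9 to 34.6 CPM in 3xTg-AD alcohol mice, with 1 of the 5 at 0 in each WT group. The summed level of the 7 Vip markers was 27.8 to 49.2, 38.9 to 68.4, 44.9 to 81.4 and 45.7 to 72.6 CPM in the same order, with none of the 7 at 0 in any group. The part of these markers, which belong to the types richest in Glra2, in the L6 CT difference was not tested. The call for 3xTg-AD alcohol versus WT control was lost on leaving out any 1 of WT control mice 26, 27 and 28 and 3xTg-AD alcohol mice 4, 33 and 34, with estimates between 0.96 and 1.22, and without the 3 mice with high Gm42418 (1.10, adjusted p = 0.0973 by edgeR). The call for alcohol was kept on leaving out WT control 36, WT alcohol 7, 3xTg-AD 12 or 3xTg-AD alcohol 31 and lost without any 1 of the other mice, with estimates between 0.75 and 0.88. Both calls were lost at a coarser clustering. The first was also lost with DESeq2, which gave no adjusted p for the second, and the second was lost without the nuclei of shared barcodes (0.88, adjusted p = 0.0512 by edgeR).

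In other classes Glra2 leaned the same way without a call in the main fits. Over all nuclei it was 4.14, 5.82, 4.95 and 14.2 CPM in the WT controls, 11.4, 11.4, 13.7 and 11.4 CPM in WT alcohol, 15.7, 10.4, 4.46 and 5.78 CPM in 3xTg-AD, and 18.3, 16.5, 13.2 and 21.6 CPM in 3xTg-AD alcohol mice, each in the order of mice given for L6 CT, as in the later lists. The 3xTg-AD alcohol group overlapped with the WT controls through WT control mouse 36. The log2 difference of these groups over all nuclei was 1.25 ± 0.36 (adjusted p = 0.0565 by edgeR), and that of alcohol averaged over genotype was 0.81 ± 0.25 (adjusted p = 0.0843). For 3xTg-AD alcohol versus WT control it was 1.33 ± 0.44 in glutamatergic and 0.95 ± 0.28 in GABAergic neurons (adjusted p = 0.105 and 0.0672 by edgeR). That contrast was also fitted with alternative processing and without single mice. Glra2 was called in 4 of 25 such fits over all nuclei, 2 of 25 in glutamatergic and 6 of 26 in GABAergic neurons. In that contrast all 9 estimates for Glra2 were above 0, with a median of 1.16, and for alcohol averaged over genotype all 9 were above 0, with a median of 0.81. The genotype estimates were above 0 in 7 of 9 classes with a median of 0.35, and the largest, 1.16 ± 0.38 in Pvalb interneurons, had an adjusted p of 0.149 by edgeR. This estimate ranged from 0.77 without 3xTg-AD mouse 12 to 1.36 without 3xTg-AD mouse 14, was called without mouse 14 (adjusted p = 0.0305 by edgeR) and, at 1.16, with no filter on low counts, and was 0.63 when the 3 mice with high Gm42418 were left out.

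**Figure D2:**
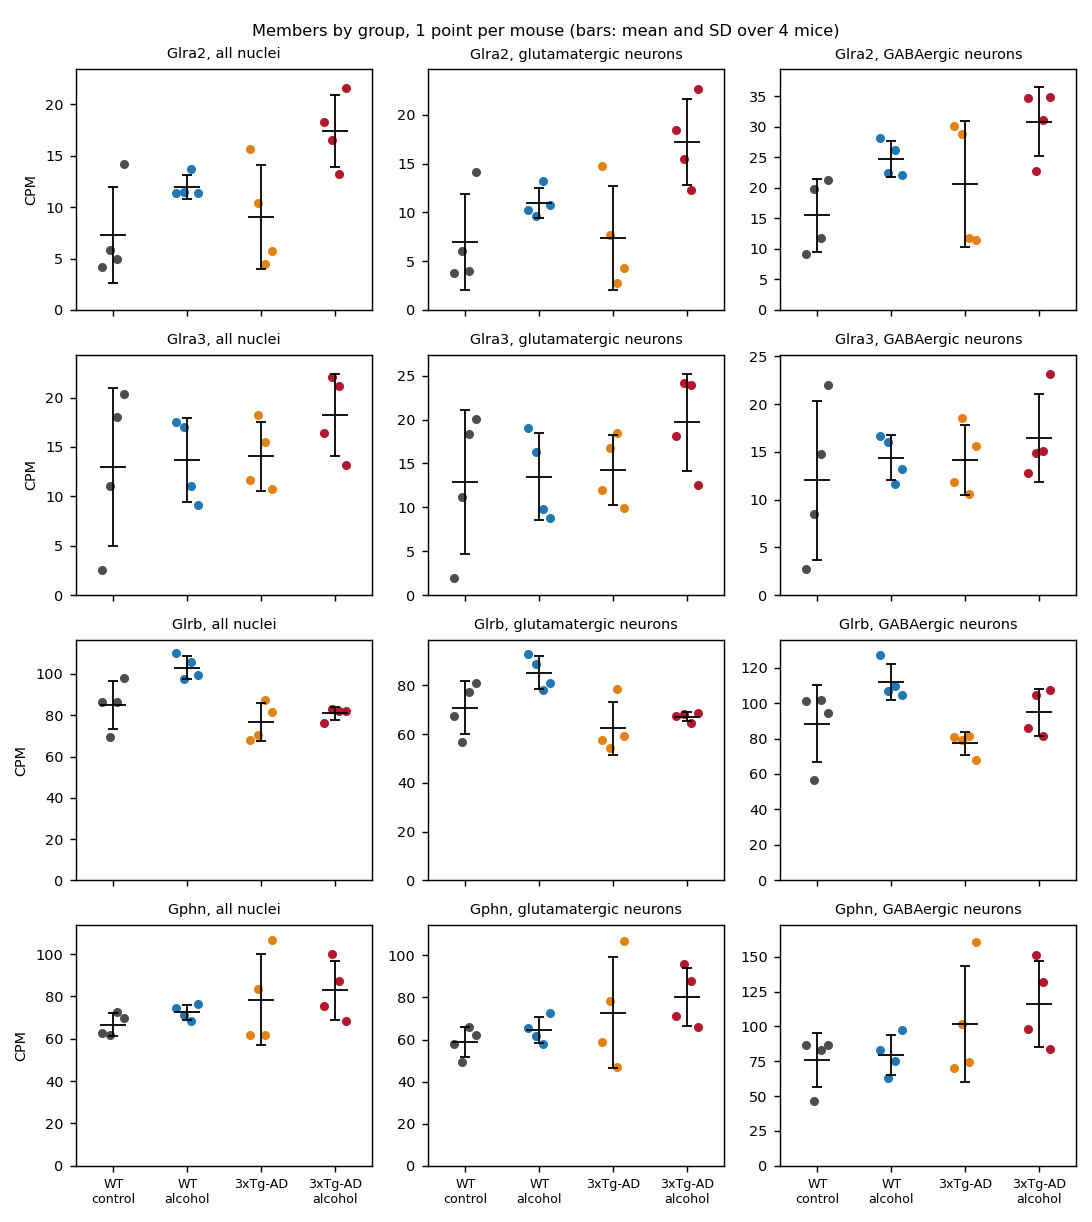
CPM of each gene over all nuclei, in glutamatergic neurons and in GABAergic neurons, with 1 point per mouse and bars for the mean and SD over the 4 mice of a group. Glra2 in all nuclei lies between 13.2 and 21.6 CPM in 3xTg-AD alcohol mice and between 4.14 and 14.2 CPM in WT controls, and Glrb in all nuclei is highest in WT alcohol mice.

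Single types gave estimates of different size for Glra2, and whether they differed between types was not tested. In Pvalb interneurons the level was 2.08 to 13.6 CPM in WT control, 7.65 to 17.6 CPM in WT alcohol, 0 to 40.5 CPM in 3xTg-AD and 23.1 to 47.6 CPM in 3xTg-AD alcohol mice. The last group did not overlap with either WT group, and 3xTg-AD alcohol versus WT control was at 1.90 ± 0.51 (adjusted p = 0.0533 by edgeR). The largest cluster of Pvalb nuclei was not the same in those groups, with 44.7% in 1 cluster in WT controls and 66.4% in another in 3xTg-AD alcohol mice, where WT controls had 34.2%. In L5 ET neurons the level was 1.14 to 7.51 CPM in WT control and 9.18 to 17.8 CPM in 3xTg-AD alcohol mice, again without overlap, with a difference of 1.73 ± 0.52 (adjusted p = 0.127 by edgeR). WT alcohol mice held 6.98 to 22.4 CPM there, and alcohol averaged over genotype was at 1.38 ± 0.36 (adjusted p = 0.0853 by edgeR). Over all mice these levels rest on 115 Glra2 UMIs in Pvalb and 157 in L5 ET nuclei. The share of all genes whose ranges did not overlap between groups was not determined for these or any other classes.

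L2/3 IT neurons, where the thinned share of nuclei with a Glra2 UMI was not above the astrocyte background, had low levels in all groups. WT control mice held 1.98 to 5.01 CPM, WT alcohol mice 1.86 to 3.66 CPM, 3xTg-AD mice 1.45 to 3.46 CPM and 3xTg-AD alcohol mice 4.80 to 8.72 CPM. The 3xTg-AD alcohol mice were above all WT alcohol and all 3xTg-AD mice and overlapped with WT controls. The interaction estimate was 1.80 ± 0.57, with an unadjusted p of 0.00414 and an adjusted p of 0.985 by edgeR. In Vip interneurons, where Glra2 was high in every group, WT control mice held 24.3 to 93.6 CPM and 3xTg-AD alcohol mice 42.6 to 104.1 CPM, which overlap, and the difference was 0.41 ± 0.40 (adjusted p = 0.850 by edgeR). It ranged from 0.11 without WT control mouse 28 to 0.73 without WT control mouse 27. In L5/6 NP neurons the difference between 3xTg-AD alcohol and WT control mice was 0.91 ± 0.46 (adjusted p = 0.553 by edgeR). It ranged from 0.72 without WT control mouse 27 to 1.55 without WT control mouse 36 and was not called without any 1 mouse.

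**Figure D3:**
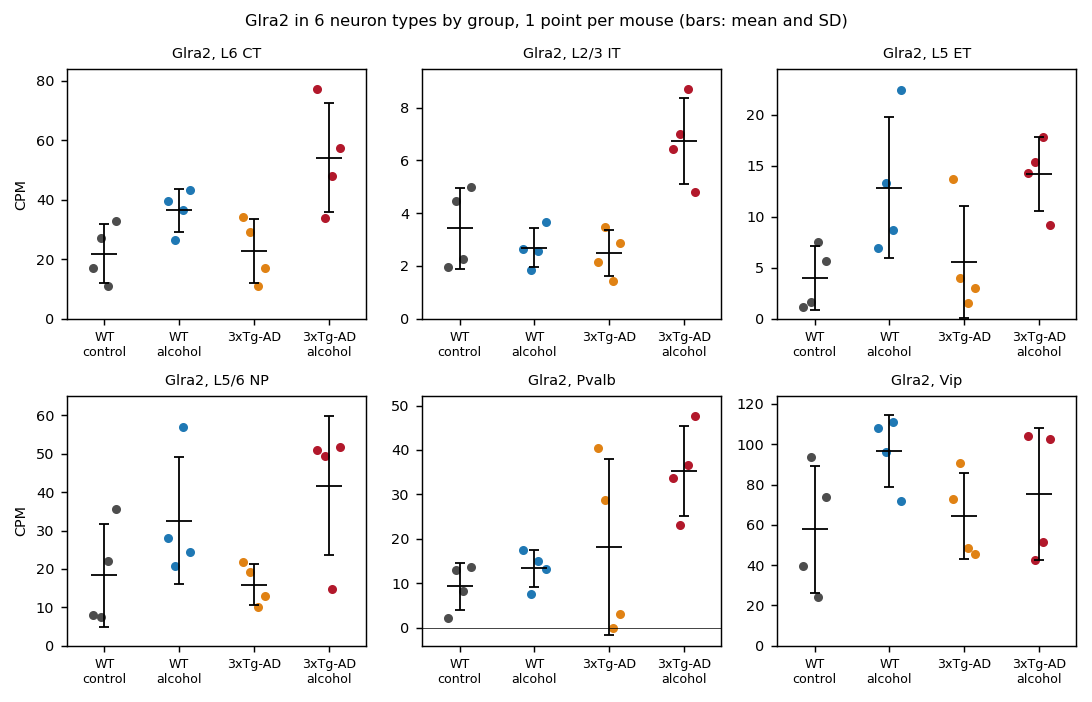
CPM of Glra2 in 6 neuron types by group, with 1 point per mouse and bars for the mean and SD. The 3xTg-AD alcohol mice lie at 33.8 to 77.3 CPM in L6 CT neurons, above the WT controls at 10.9 to 32.8 CPM, whereas the groups overlap in Vip interneurons.

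In classes where a member was below the filter on low counts, mean CPM was compared over mice by a two-sided exact permutation test. The smallest adjusted p of these 74 tests was 0.474, and the unadjusted p was under 0.05 in 4 of them. Such a test of 4 mice against 4 cannot give a p under 0.0286. L6b neurons held a Glra2 level of 107.6 ± 56.7 CPM in 6 3xTg-AD mice and 49.9 ± 11.9 CPM in 7 WT mice (exact permutation p = 0.00641, adjusted p = 0.474), counting mice of both treatments. 3xTg-AD mice 14 and 21 and WT control mouse 28 had too few L6b nuclei, so the treatments were not balanced. 3xTg-AD alcohol mouse 33 entered with 13 L6b nuclei and 24980 UMIs. The other tests under 0.05 were 2 of Glra2 in Lamp5 interneurons, for genotype and for 3xTg-AD alcohol versus WT control, and 1 of Glrb in endothelial cells.

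No Glra3 difference between groups passed the edgeR test. Over all nuclei it was 2.57, 11.02, 17.98 and 20.4 CPM in WT control, 17.5, 17, 11 and 9.10 CPM in WT alcohol, 11.7, 18.2, 15.5 and 10.7 CPM in 3xTg-AD, and 16.4, 22.1, 21.2 and 13.2 CPM in 3xTg-AD alcohol mice. WT control mouse 26 was far below every other mouse, and all groups overlapped. 3xTg-AD alcohol versus WT control was at 0.52 ± 0.36 over all nuclei (adjusted p = 0.456 by edgeR) and at 0.92 ± 0.40 in L5 ET neurons (adjusted p = 0.371). The value over all nuclei was 0.18 without WT control mouse 26, 0.79 without WT control mouse 36, and 0.02 when the 3 mice with high Gm42418 were left out. All 5 Glra3 estimates were above 0 in that contrast, with a median of 0.57. Without those 3 mice, of which mouse 26 is 1, the estimate in GABAergic neurons turned to -0.17.

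Glrb was called lower in 3xTg-AD than in WT mice over all nuclei, but the call was lost on leaving out most single mice. It was the 1 call among 49 member tests for genotype averaged over alcohol, where 1.44% of the tests of all genes were called. Over all nuclei Glrb was 86.3, 69.2, 86.6 and 97.8 CPM in WT control and 109.9, 97.4, 105.8 and 99.3 CPM in WT alcohol mice. It was 68.1, 70.3, 87.5 and 81.4 CPM in 3xTg-AD and 76.4, 83.2, 82.0 and 81.9 CPM in 3xTg-AD alcohol mice. The 4 WT alcohol mice were above all 8 mice of the 3xTg-AD genotype, and the WT control mice overlapped with them. Averaged over alcohol, Glrb fell by 0.25 ± 0.07 on the log2 scale in 3xTg-AD mice, to 0.840 of the WT level, with an adjusted p of 0.0456 by edgeR, in a contrast where 3.28% of 16767 genes were called. It was not called with RLE size factors, without the filter on low counts, with a stricter filter on nuclei, without the 3 mice with high Gm42418 or on leaving out any 1 mouse other than WT control 27 or 3xTg-AD 14, with estimates between -0.29 and -0.22 over the mice left out. DESeq2 called it (adjusted p = 0.00391).

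The direction of the Glrb genotype difference was shared by the classes. The estimate was below 0 in 17 of 17 classes tested, and in 14 of 14 single types, with a median of -0.26 over the 17, and 9 of the 17 had an unadjusted p under 0.05. The nuclei of a class are part of the sum over all nuclei, whereas the single types share no nuclei but come from the same mice. In glutamatergic neurons the estimate was -0.26 ± 0.07 (adjusted p = 0.0672 by edgeR) and in L6 CT neurons -0.43 ± 0.12 (adjusted p = 0.0552). Astrocytes were 4.98 to 6.53% of nuclei in WT and 6.51 to 8.63% in 3xTg-AD mice. Nuclei that the first round of clustering left without a class or type name also varied. They were 19.6 to 28.7% in WT control and 26.5 to 39.0% in WT alcohol mice. In 3xTg-AD mice they were 16.8 to 36.3%, and in 3xTg-AD alcohol mice 17.5 to 43.2%. The part of these shares in the Glrb difference over all nuclei was not tested. Under alcohol alone, 3xTg-AD versus WT was at -0.32 ± 0.09 over all nuclei (adjusted p = 0.120 by edgeR) and below 0 in 17 of 17 classes. Without alcohol, 3xTg-AD versus WT control was below 0 in 15 of 17 classes and above 0 in 2, with a median of -0.22. The smallest adjusted p of that contrast was 0.560 by edgeR. For 3xTg-AD alcohol versus WT control, 14 of 17 were below 0 and 3 above, with a median of -0.09. Alcohol itself was at 0.16 ± 0.07 averaged over genotype (adjusted p = 0.185 by edgeR), with 0.23 ± 0.09 between the WT groups and 0.09 ± 0.09 between the 3xTg-AD groups.

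Gphn leaned upward in 3xTg-AD mice without a call. Over all nuclei it was 62.8, 61.7, 72.7 and 69.6 CPM in WT control, 74.4, 71.4, 68.3 and 76.4 CPM in WT alcohol, 61.6, 83.5, 61.8 and 106.9 CPM in 3xTg-AD, and 75.6, 100.3, 87.4 and 68.6 CPM in 3xTg-AD alcohol mice. The spread among the 3xTg-AD mice was wide, with mouse 21 the highest and mice 12 and 14 at the level of the lowest WT control, and the groups overlapped. The genotype estimate averaged over alcohol was above 0 in 17 of 18 classes, with a median of 0.31, and the smallest adjusted p was 0.249 by edgeR. For 3xTg-AD alcohol versus WT control the Gphn estimate was largest in Vip interneurons at 0.99 ± 0.31 (adjusted p = 0.164 by edgeR), where WT controls held 55.5 to 97.1 CPM and 3xTg-AD alcohol mice 128.4 to 234.5 CPM without overlap. In Lamp5 interneurons, 3xTg-AD alcohol versus WT alcohol was at 1.004 ± 0.27 (adjusted p = 0.0764 by edgeR). Whether the genotype difference itself differed between glutamatergic and GABAergic neurons was tested on the log2 ratio of the levels in each mouse. That difference was 0.00 for Glra2, -0.06 for Glrb and -0.18 for Gphn (exact permutation p = 0.984, 0.570 and 0.0793, adjusted p = 0.984, 0.855 and 0.238, n = 8 mice per genotype). With Meis2 and striatal clusters among GABAergic neurons it was -0.139, -0.0024 and -0.073 in the same order. With 1 mouse left out it ran from -0.105 to -0.0059 for Glrb and from -0.219 to -0.125 for Gphn.

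**Figure D4:**
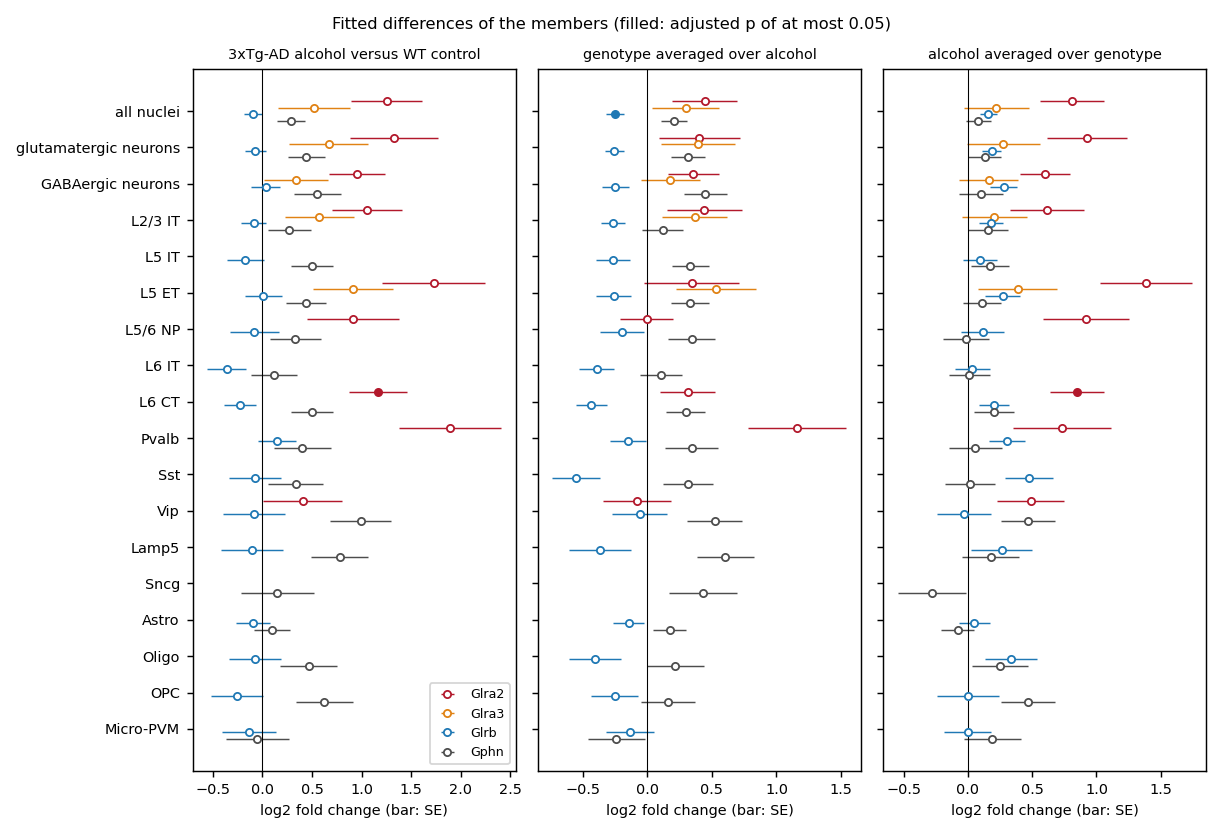
Fitted log2 fold changes with SE bars for the 4 genes in each class tested, in 3 contrasts, with filled points for an adjusted p of at most 0.05. The 3 filled points are Glra2 in L6 CT neurons at 1.16 and 0.85 and Glrb in all nuclei at -0.25, and all Glrb points lie left of 0 for genotype.

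Other genes of glycine and gephyrin biology were read from the same fits, from 5 lists with 38 genes in the table. Of the 9 genes for glycine transport, synthesis and breakdown, 2 were called for genotype averaged over alcohol in all nuclei, where 3.28% of all genes were called, and 0 by edgeR in the other 7 contrasts. The largest count at an unadjusted p under 0.05 in those 7 was 5, in 3xTg-AD alcohol versus WT alcohol, where 14% of all genes had one. Slc32a1, the vesicular transporter for GABA and glycine, fell by 0.46 ± 0.09 (adjusted p = 0.00822 by edgeR), and Slc7a10, an amino acid transporter of astrocytes that carries serine and glycine, rose by 0.48 ± 0.12 (adjusted p = 0.0428). Over all nuclei Gad1, a marker of GABAergic neurons, ran from 65.1 to 154.5 CPM in WT and from 47.6 to 76.4 CPM in 3xTg-AD mice, the highest value being that of WT control mouse 27 with its 1022 Meis2 nuclei and the next WT mouse held 96.7 CPM, and astrocytes made up more of the nuclei in 3xTg-AD mice, as given above. The part of these in the Slc32a1 and Slc7a10 differences was not tested, and neither gene was called in glutamatergic or GABAergic neurons, where 2.97% and 1.76% of genes were called. Shmt1, which makes glycine from serine, fell by 1.22 ± 0.31 for genotype averaged over alcohol in glutamatergic neurons (adjusted p = 0.0342 by edgeR). Its level was low, with 326 UMIs over all nuclei of all mice, and it was not called for genotype over all nuclei. Slc6a9, the glycine transporter GlyT1, was at 0.00 ± 0.10 for genotype over all nuclei (adjusted p = 0.994 by edgeR). Glra1, another alpha subunit gene, had 314 UMIs in the table and was at -0.31 ± 0.18 for genotype (adjusted p = 0.437 by edgeR).

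No partner of gephyrin passed the test over all nuclei. Of 11 partners tested in all nuclei, 0 were called by edgeR in any of the 8 contrasts, with 2 at an unadjusted p under 0.05 for genotype and 3 for alcohol, where 16.2% and 20.9% of all genes had one. The largest count over the 8 contrasts was 4, in 3xTg-AD alcohol versus WT control, where 20.1% of all genes had one. Nlgn2, the neuroligin of inhibitory synapses, was at -0.24 ± 0.08 for alcohol (adjusted p = 0.107 by edgeR). Of the 6 GABA-A receptor subunits found with gephyrin, 0 were called in all nuclei by edgeR, with 3 at an unadjusted p under 0.05 for genotype and 1 for alcohol, to be read against the same shares of 16.2% and 20.9%. Of 10 molybdenum cofactor genes and molybdenum enzymes tested, 1 was called for genotype in all nuclei, against 3.28% of all genes. It was Aox4, an aldehyde oxidase, which fell by 1.61 ± 0.35 (adjusted p = 0.0149 by edgeR) from a low level of 0.721 to 2.33 CPM in WT mice, and 3xTg-AD mice held 0 to 0.648 CPM without overlap. In glutamatergic neurons Aox4 was called for genotype (-1.56 ± 0.31) and for 3xTg-AD versus WT control (-2.16 ± 0.48), a contrast in which 0.49% of genes were called.

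Position on the chromosome is a property that the choice of members did not use, so genes within 3 Mb of each member were read from the fits over all nuclei. Around Glra2, 10 of 30 tested genes, or 33.3%, were called for genotype averaged over alcohol, against 3.28% of all genes, and all 10 were higher in 3xTg-AD mice. They were 10 of the 11 tested genes on the side of higher coordinates, from 0.843 Mb onward, and 0 of the 19 on the other side, a split that was made after the values were seen. In 3xTg-AD versus WT control 8 of the 30 were called and in 3xTg-AD alcohol versus WT alcohol 8, all higher in the 3xTg-AD genotype, against 0.435% and 0.942% of all genes. In 3xTg-AD alcohol versus WT control 11 of the 30 were called against 4.06% of all genes, 10 higher and 1 lower, the lower one being Ctps2 on the side of lower coordinates at -0.39 ± 0.11 (adjusted p = 0.0442 by edgeR). For genotype averaged over alcohol the 5 with the largest change were Tlr7 at 1.34 ± 0.23, Gemin8 at 1.06 ± 0.14, Trappc2 at 1.03 ± 0.10, Frmpd4 at 1.03 ± 0.10 and Tmsb4x at 0.99 ± 0.16 (all adjusted p of at most 0.00258 by edgeR). Tlr7 encodes a sensor of single-stranded RNA, Frmpd4 a postsynaptic scaffold protein, and Tmsb4x an actin-binding thymosin. The level of Tlr7 was low, at 0.624 to 1.43 CPM in WT and 1.62 to 3.86 CPM in 3xTg-AD mice. Micro-PVM were 1.3 to 2.88% of nuclei in WT control and 1.53 to 3.27% in WT alcohol mice. They were 2.76 to 3.56% in 3xTg-AD and 2.8 to 5.55% in 3xTg-AD alcohol mice. The part of these shares in the Tlr7 difference was not tested. Frmpd4 was 47.6 to 61.8 CPM in WT and 103.3 to 131.3 CPM in 3xTg-AD mice, and Trappc2 ran from 19.8 to 42.2 CPM in WT mice and from 47.8 to 81.5 CPM in the others, so all 16 mice separated by their genotype label. Glra2 itself was at 0.44 ± 0.25 for genotype (adjusted p = 0.411 by edgeR) and overlapped between the genotypes. That value was 0.22 without 3xTg-AD mouse 12, 0.69 without WT control mouse 36, and 0.06 when the 3 mice with high Gm42418 were left out.

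**Figure D5:**
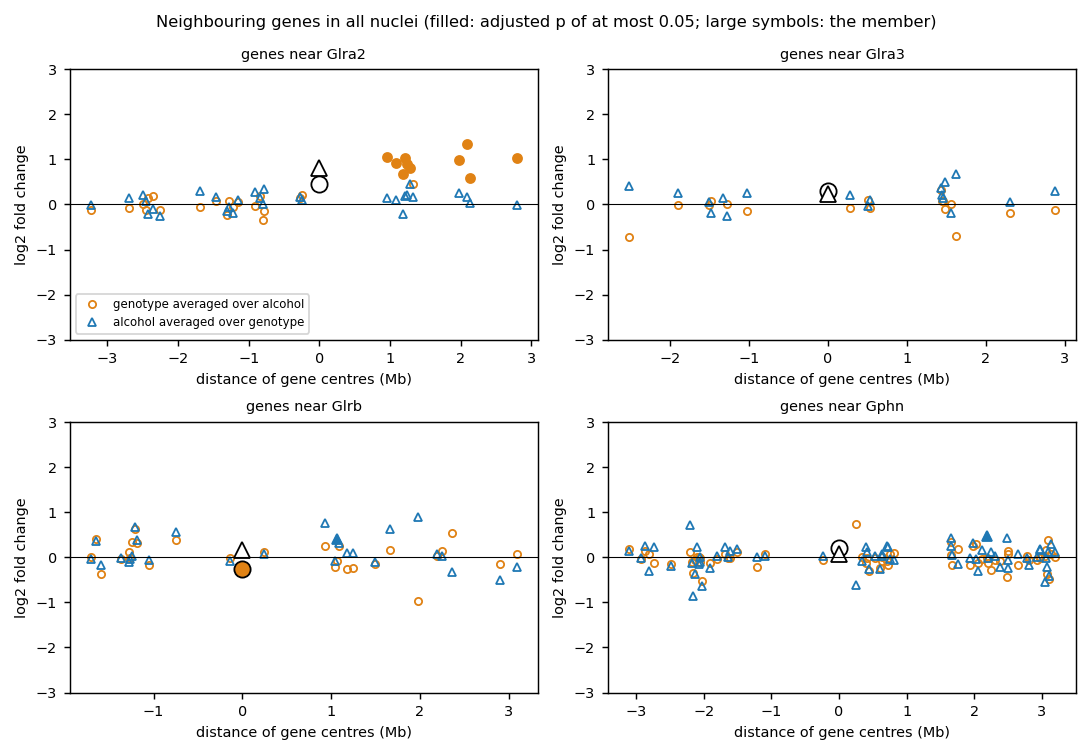
Log2 fold changes over all nuclei of genes within 3 Mb of each member, plotted by the distance between gene centers in Mb, for genotype (circles) and alcohol (triangles), with filled symbols for an adjusted p of at most 0.05 and large symbols for the member. The run of filled circles on 1 side of Glra2 lies between 0.58 and 1.34, and Gm15758 near Glra3, at -5.38, is outside the plotted range.

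For alcohol averaged over genotype, 0 of the 30 genes near Glra2 were called by edgeR. Around Glra3, 1 of 18 was called for genotype, the predicted gene Gm15758, which fell by 5.38 ± 0.49 (adjusted p = 2.84e-06 by edgeR), from 2.22 to 9.07 CPM in WT mice to 0 to 0.484 CPM in 3xTg-AD mice. Around Glrb, 0 of 27 were called for genotype by edgeR, where Glrb itself was called, and 1 was called for alcohol, Ctso at 0.40 ± 0.10. Around Gphn, 0 of 67 were called for genotype by edgeR, 1 for 3xTg-AD alcohol versus WT control, Zfp36l1 at 0.60 ± 0.16, and 1 for alcohol, Erh at 0.47 ± 0.12. Beside these counts of 0 or 1, the called share of all genes over all nuclei was 3.28% for genotype. It was 4.06% for 3xTg-AD alcohol versus WT control and 3.3% for alcohol.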

How the data were processed

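UMI counts per gene and nucleus were analyzed from 16 libraries, 1 per mouse. The authors deposited these counts, not normalized, as made with Cell Ranger 6.1.1 and STAR on mm10 per the submitters' processing notes. Whether intronic reads were counted is not given in the sources used here. The depth was 9622031 to 17544364 UMIs per mouse. The SDs over mice and the SEs of the fits hold differences between mice as well as counting error.

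Nuclei were clustered in 3 rounds with scanpy 1.11.5 (2000 variable genes, 30 principal components, 20 neighbors, Leiden resolution 1.5). Clusters were named from fixed marker lists as classes rebuilt here, and a difference from the study's own annotation may come from that. Between 16.8 and 43.2% of the nuclei of a mouse were left by the first round without a class or type name. They entered only the sum over all nuclei. Another 1.17 to 5.36% were taken out of a main neuron class after a later round and likewise entered only that sum. Clusters without a type name within the 2 main neuron classes entered the sum of their class and the sum over all nuclei, in addition to these shares. Scrublet's automatic threshold marked 48 nuclei (0.0419%) and thus did not work, so doublets were kept, and the 6% with the highest scores were removed as an alternative.

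Counts were summed per mouse and class with at least 10 nuclei. All 16 mice entered 1 fit per class in edgeR 4.0.16 (TMM, filterByExpr, robust quasi-likelihood test, R 4.3.3), with 8 contrasts and Benjamini-Hochberg adjustment within class and contrast. DESeq2 1.42.0 was an alternative. Members below the filter were compared by exact permutation tests of CPM. On simulated counts for 3xTg-AD alcohol versus WT control, the edgeR test recovered 80.6% of genes changed by 1 on the log2 scale in 16548 genes of all nuclei, and 70.4% in L6 CT neurons, and unchanged genes made up 8.15% and 9.39% of its calls there, above the nominal threshold of 0.05. Nuclei were thinned to 600 UMIs for shares, which left out 762 nuclei. Genes were placed by GENCODE M21 (19674 matched by name), and promoters of 4 of 4 members came from RefSeq.

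Named genes were the members, the list genes called or chosen for their role, the 3 genes most like a member, and the 5 called neighbors with the largest change per member within 3 Mb. Some list genes that this rule names are not reported here. The members and lists were chosen with earlier results of these data known. Samples were grouped by their titles, and mice are separate animals per the labels. A supplementary sheet of the study lists WT alcohol mice 17 and 18 and 3xTg-AD alcohol mouse 31 with the other genotype, and the titles were used. Grouped by the titles, the 8 WT and 8 3xTg-AD mice did not overlap in Frmpd4 or Gm15758. Both genes were picked as called for genotype in fits that used the titles, so this is not an independent check of the titles.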

Additional observations from a re-analysis of the deposited data

Results flagged for a closer look

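The CPM of the 4 genes in all nuclei and both main neuron classes, of Glra2 in L6 CT, Pvalb and L2/3 IT neurons and of Glrb in L6 CT neurons was checked in each group of 4 mice for a mouse far from the other 3, and 5 of 64 such groups held one. Chance flags about 1 in 20 such groups. The 64 groups share mice and nuclei, so this rate does not show whether 5 is more than chance gives. Glra2 over all nuclei was 14.18 CPM in WT control mouse 36, whereas the other WT controls held 4.14 to 5.82 CPM. It was 13.74 CPM in WT alcohol mouse 17 beside 11.35 to 11.44 CPM in the other WT alcohol mice. Glrb in GABAergic neurons was 56.57 CPM in WT control mouse 27 beside 94.5 to 101.6 CPM, and 67.68 CPM in 3xTg-AD mouse 21 beside 79.4 to 81.4 CPM. Gphn in GABAergic neurons was 46.67 CPM in WT control mouse 27, the others of that group being at 82.9 to 86.6 CPM. WT control mouse 27 was 1 of the 3 mice with high Gm42418, and the part of that in its low Glrb and Gphn values was not tested. Its 1022 nuclei with Meis2 markers were not in the GABAergic class, which held 335 nuclei of that mouse. Without WT control mouse 36, Glra2 over all nuclei was called for 3xTg-AD alcohol versus WT control at 1.75 (log2; adjusted p = 0.0129 by edgeR).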

How the results depend on the processing

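The number of member tests called, of 49 per contrast in the main fits, changed with the processing. Under an alternative the number of tests can differ from 49. For 3xTg-AD alcohol versus WT control it went from 1 to 4 without the filter on low counts, 2 with only the groups compared in the fit, 0 without the 3 mice with high Gm42418, 3 without the 6% of nuclei with the highest doublet scores, 0 at Leiden resolution 1.0 and 2 with Meis2 and striatal clusters among GABAergic neurons. For 3xTg-AD alcohol versus 3xTg-AD it went from 0 to 1 without the filter, 4 without the high-Gm42418 mice and 1 at resolution 1.0, and for 3xTg-AD alcohol versus WT alcohol from 0 to 1 with DESeq2, with only the compared groups, without the high-Gm42418 mice and without nuclei of shared barcodes. For genotype it went from 1 to 0 with RLE size factors, 2 with DESeq2, 0 with the stricter filter on nuclei, 2 at resolution 1.0 and 2 without shared barcodes, and for alcohol from 1 to 3 without the filter, 4 without the high-Gm42418 mice, 0 at resolution 1.0 and 0 without shared barcodes. Leaving out 1 mouse gave 0 to 6, 0 to 4, 0 to 1, 0 to 4 and 0 to 5 calls in these 5 contrasts. The share of all genes called under each alternative is not given here, so the counts of calls in this section cannot be set against it. List genes called in all nuclei went from 0 to 2 (DESeq2) and 1 (without the high-Gm42418 mice) for 3xTg-AD alcohol versus WT control, 1 (DESeq2) for 3xTg-AD versus WT control, 1 and 2 for 3xTg-AD alcohol versus 3xTg-AD, 2, 2 and 1 (only the compared groups) for 3xTg-AD alcohol versus WT alcohol, and 2 and 2 for alcohol, and 0 to 1 with 1 mouse left out. The 3 list genes called for genotype were 2 or 3 in number with 1 mouse left out. Called neighbors of Glra2 within 1 Mb were 2 in 3xTg-AD alcohol versus WT control and 2 for genotype, and 8 to 11 within 3 Mb with 1 mouse left out in the former. The Glrb genotype difference in all nuclei missed the threshold at -0.2457 (RLE), -0.251 (no filter), -0.2414 (without the high-Gm42418 mice) and -0.2472 (stricter filter), and was -0.2856 to -0.2191 with 1 mouse left out. Glra2 in L6 CT neurons missed it for 3xTg-AD alcohol versus WT control at 1.214 (DESeq2), 1.10 (without the high-Gm42418 mice) and 1.105 (resolution 1.0), with 0.9643 to 1.467 over mice left out, and for alcohol at 0.769 (resolution 1.0) and 0.8848 (without shared barcodes), with 0.7522 to 1.046 over mice left out, and DESeq2 gave no adjusted p for it. Without the high-Gm42418 mice the sign turned for Glra2 in glutamatergic neurons (genotype, -0.07099), L5 ET (genotype, -0.4103) and Vip neurons (genotype, 0.04777), for Glra3 in all nuclei (alcohol, -0.05706) and GABAergic neurons (-0.1659 for 3xTg-AD alcohol versus WT control, -0.04977 for genotype, -0.1161 for alcohol), and for Glrb in GABAergic neurons (3xTg-AD alcohol versus WT control, -0.00574, and -0.009727 with Meis2 clusters). Glra2 in L5/6 NP neurons (genotype) turned to 0.01635 without the filter, 0.01555 with DESeq2 and 0.03713 at resolution 1.0. The Glra2 difference between glutamatergic and GABAergic effects turned to 0.02147 without shared barcodes and was -0.09095 to 0.09002 with 1 mouse left out. Leaving out 1 mouse also turned Glra3 (alcohol, -0.001489 to 0.4165) and Glrb (3xTg-AD alcohol versus WT control, -0.09338 to 0.1402) in GABAergic neurons, and Glra2 for genotype in L5 ET (-0.1814 to 0.5817), Vip (-0.2328 to 0.07998) and L5/6 NP neurons (-0.112 to 0.3119). Unthinned shares of nuclei with a UMI were 2.096, 2.66, 14.66 and 12.8% over all nuclei for Glra2, Glra3, Glrb and Gphn, 2.77, 3.83, 16.96 and 16.6% in glutamatergic and 4.375, 2.66, 16.46 and 16.49% in GABAergic neurons. The causes of these changes were not tested, and the alternative without shared barcodes was chosen after seeing the data. No paired analysis was possible because no mouse number occurs in more than 1 group.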
